A study of Homo sapiens with 6 samples.

Results

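The mitotic kinesins examined here are 10 motor proteins that build and work the spindle, namely KIF11, KIF20A, KIF23, KIF2C, KIF4A, KIF14, KIF15, KIF18A, KIF22 and CENPE. They were chosen by name, and every probe set whose platform annotation gave 1 of these symbols and no other was taken. This gave 14 probe sets for 10 genes, of 54613 probe sets and 19775 single-symbol genes on the array. Each probe set reads 1 transcript, or several near-identical ones, through many short oligonucleotides. All 14 passed the filter on dim signals and were therefore among the 27307 probe sets and 12406 genes tested.

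The cells were A549, an established human lung adenocarcinoma line, and mRNA was measured on Affymetrix HG-U133 Plus 2.0 arrays. In 3 arrays the cells had been transiently silenced with an siRNA duplex against NME2, a nucleoside diphosphate kinase described as a metastasis suppressor. In the other 3 the cells had received control siRNA duplexes, so both groups were transfected. The sources used here give neither the time after transfection nor the siRNA dose. The replicates are called biological, but nothing says that they came from separate cultures, and p-values therefore reflect only how far these arrays spread. The comparison asked which transcripts change when NME2 is depleted.

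Kinesins are motors that turn ATP hydrolysis into movement along microtubules or into removal of microtubule ends. Those of mitosis push spindle poles apart, carry and align chromosomes, and organise the overlapping microtubules of the midzone, where the cell later divides. Their genes are transcribed mostly in G2 and M phase, so in proliferating cells their mRNA level follows the share of cells in those phases as well as the output per cell. In RNA from a whole culture, fewer cells in a phase and less RNA per cell cannot be told apart.

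NME2, on a probe set that the annotation also gives to a read-through transcript, had signals of 1920, 3676 and 3216 in NME2-depleted arrays, against 17862, 19389 and 21044 in control arrays, 6.85-fold lower (limma adjusted p = 0.00032). Of 6 epithelial markers the mean signals ran from 561 for EPCAM to 26233 for KRT7 and 30187 for KRT18. AKR1B10, an enzyme typical of A549, had 37346. Summed signals of the epithelial markers were 74012 to 81010 in NME2-depleted arrays and 75537 to 82809 in control arrays. In limma 0 of the 6 passed, and 3 had an unadjusted p under 0.05, against 15% of all tested genes. These were EPCAM (log2 difference 0.71), CDH1 (0.21) and KRT8 (-0.24). Of the leukocyte markers PTPRC and LYZ stood at 15.4 and 18, and of the endothelial ones CDH5, VWF and KDR at 16 to 28. Above the filter stood 2 of 5 endothelial (PECAM1 and ESAM), 3 of 6 fibroblast (COL1A1, LUM and DCN) and 2 of 4 leukocyte markers (CD14 and CD3E). Summed signals of the 5 endothelial markers were 575.4 to 679.9 in NME2-depleted arrays and 319.5 to 401 in control arrays. Most of this gap was ESAM, with means of 316.2 in NME2-depleted and 99.5 in control arrays, whereas PECAM1 had 238.3 and 205.8. For the 6 fibroblast markers the sums were 786.5 to 964.9 in NME2-depleted arrays and 602.5 to 798.7 in control arrays, and for the 4 leukocyte markers 314.7 to 443.4 in NME2-depleted arrays and 370.5 to 461.4 in control arrays. Their part in the kinesin values was not tested. The 3'/5' signal ratio of ACTB, a sign of RNA quality, was 1.33, 1.34 and 1.40 in NME2-depleted arrays and 1.20, 1.30 and 1.23 in control arrays, and its part was likewise not tested.

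No mitotic kinesin gene changed past the threshold after NME2 depletion. Of 10 genes, 0 passed an adjusted p of 0.05 in limma in either direction, where 0.54% of all tested genes did and 0.395% did so as lower. At an unadjusted p under 0.05 limma called 0 of 10 genes, against 15% of all tested genes, and 1 of 14 probe sets, against 12.9% of all tested probe sets. At that unadjusted level the methods' t-test called 0 of 14 probe sets, against 11.2% of all tested probe sets, and after adjustment it called 0 over the whole array. The means leaned downward all the same. In 8 of 10 genes the mean was lower in NME2-depleted cells, where 49.8% of all tested genes had a lower mean, and the median log2 difference was -0.13, against 0.00 over all tested genes. The lean was smaller than the spread of the array medians within a group (pooled SD 0.16). That SD describes single arrays and is not the error of the lean, which was not tested. The median was -0.05 without control replicate 1, -0.09 without control replicate 2 and -0.25 without control replicate 3, and the number of lower means lay between 7 and 10 whichever array was left out.

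Promoters of G2/M genes often carry a cell cycle genes homology region (CHR), a hexamer near the start site, at which a complex called MuvB binds. In resting cells MuvB belongs to the repressing DREAM complex, and later in the cycle it works with the activators MYBL2 and FOXM1. A CCAAT box, which the trimeric factor NF-Y binds, often stands just upstream of it. RefSeq promoter windows (GRCh38.p14) from 250 bases before to 50 after the start site were found for all 10 genes. KIF22 had 2 windows and each other gene 1. They were searched on both strands for TTTGAA, the canonical CHR, for its variants TTTAAA and TTCGAA, and for CCAAT. Each of the variants is its own reverse complement.

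TTTGAA stood in 6 of 10 genes (KIF11, KIF23, KIF4A, KIF14, KIF15 and KIF18A), against 15.2% of all 35116 windows. TTTAAA stood in 5 (KIF20A, KIF23, KIF2C, KIF14 and CENPE), against 12.2%, and TTCGAA in KIF22 alone, against 1.45%. At least 1 of TTTGAA and TTTAAA was present in 9 of 10 genes and in 24% of all windows. CCAAT was present in 7 of 10 genes and in 34.6% of all windows, and KIF2C, KIF15 and CENPE had none. Where a hexamer and a CCAAT box were both present, the first bases of the closest such pair lay 25 bases apart in KIF11, 26 in KIF20A, 24 in KIF4A, 23 in KIF14, 35 in KIF18A, 39 in KIF22 and 9 in KIF23. The counts are of genes with a match in any window, whereas the shares are of single windows. A match is a description of letters and shows no binding.

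**Figure D1:**
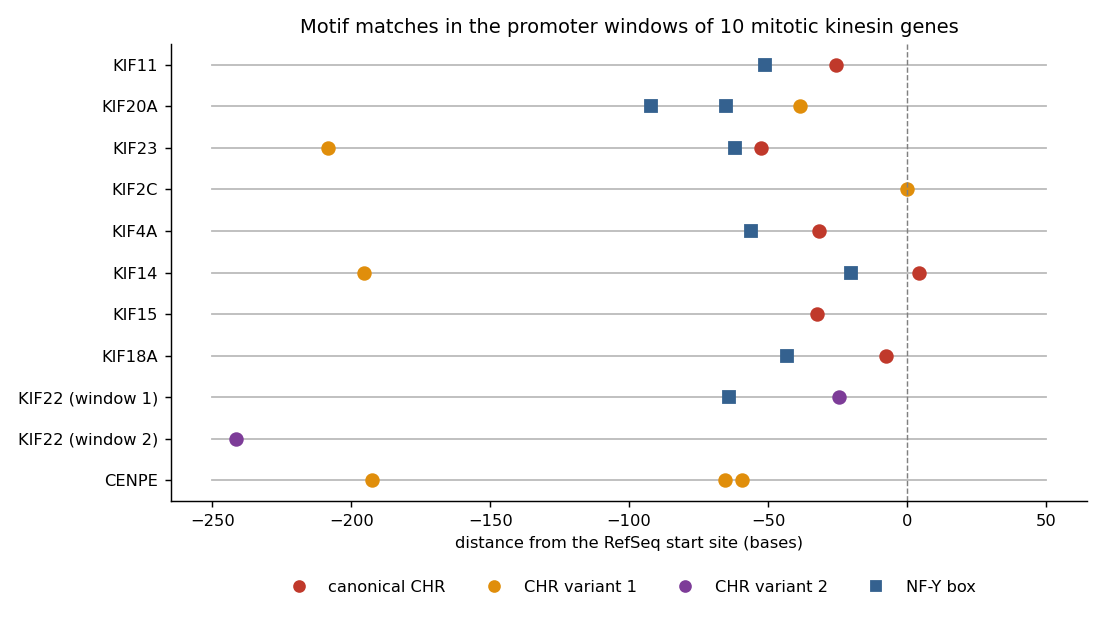
Matches to 4 short motifs in the promoter windows of the 10 genes. The horizontal axis is the distance in bases from the RefSeq start site, circles are CHR hexamers (canonical, then the A-rich variant 1 and the CG-containing variant 2) and squares are NF-Y boxes. In KIF11, KIF20A, KIF4A and KIF14 the hexamer lies 23 to 26 bases downstream of the nearest NF-Y box.

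The stretch from 100 bases before to 10 after the start site is shown for 6 genes. These are the 4 with the most negative differences and the 2 whose mean was higher in NME2-depleted cells, none of which passed the test. Each reads 5′ to 3′ on the strand of the gene, and capitals mark the hexamers and CCAAT boxes, which appear as TTCAAA and ATTGG where they lie on the opposite strand.
CENPE, chr4:103198334-103198443, minus strand: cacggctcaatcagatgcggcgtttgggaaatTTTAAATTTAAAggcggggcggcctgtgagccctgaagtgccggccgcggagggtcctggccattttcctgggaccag
KIF2C, chr1:44739737-44739846, plus strand: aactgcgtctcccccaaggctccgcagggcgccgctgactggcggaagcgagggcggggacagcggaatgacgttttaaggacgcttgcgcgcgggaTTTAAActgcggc
KIF20A, chr5:138179012-138179121, plus strand: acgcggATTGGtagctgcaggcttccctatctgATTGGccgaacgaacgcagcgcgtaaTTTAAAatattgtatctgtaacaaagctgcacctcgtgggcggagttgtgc
KIF4A, chrX:70290004-70290113, plus strand: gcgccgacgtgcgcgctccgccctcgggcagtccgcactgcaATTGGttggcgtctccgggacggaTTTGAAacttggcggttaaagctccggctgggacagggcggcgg
KIF15, chr3:44761694-44761803, plus strand: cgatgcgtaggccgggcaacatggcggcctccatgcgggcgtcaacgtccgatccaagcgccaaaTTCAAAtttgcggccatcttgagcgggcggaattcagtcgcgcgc
KIF18A, chr11:28108147-28108256, minus strand: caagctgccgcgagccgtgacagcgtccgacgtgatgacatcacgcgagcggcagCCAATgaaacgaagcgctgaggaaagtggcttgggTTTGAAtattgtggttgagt
Of the 3 hexamers at least 1 stood in each of the 10 genes, so their presence does not separate the genes. At least 1 stood in 25.1% of all windows. The canonical form appears here in KIF4A, KIF15 and KIF18A.

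KIF11, KIF15 and KIF2C act on spindle microtubules themselves. KIF11 slides antiparallel microtubules apart and is needed for a bipolar spindle. Its signals were 534, 489.2 and 464.9 in NME2-depleted arrays, against 631, 568.2 and 461.7 in control arrays. The groups overlapped, since control replicate 3 was the lowest of the 6, and the log2 difference was -0.15 (SE 0.14, limma adjusted p = 0.703). KIF15 helps to keep the spindle bipolar beside KIF11. It had 189.7, 148.2 and 103.1 in NME2-depleted arrays and 149.1, 161.5 and 83.1 in control arrays. This was the widest spread of the 10 genes, with a within-group SD of 0.44 and 0.52 on the log2 scale, and the difference of 0.18 (SE 0.31, adjusted p = 0.855) had a 95% interval from -0.51 to 0.86. The sign of KIF15 turned without NME2-depleted replicate 1 (-0.03) and without control replicate 3 (-0.12).

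KIF2C removes tubulin from microtubule ends at centromeres and so frees wrongly attached chromosomes. Both of its probe sets were lower in NME2-depleted cells. The brighter gave 776.9, 662.3 and 650.4 in NME2-depleted arrays and 961, 794.4 and 750.9 in control arrays, and only NME2-depleted replicate 1 reached into the control range. Its difference was -0.26 (SE 0.12, adjusted p = 0.406), the lowest p of the 10 genes. The other gave 266.2, 185 and 256.1 in NME2-depleted arrays and 373.4, 315.8 and 278.5 in control arrays, with no overlap. It had the most negative difference of the 14 probe sets, -0.46 (SE 0.19), and an interval from -0.87 to -0.05, but missed the threshold over all probe sets (adjusted p = 0.339). Its identifier marks it as shared between similar transcripts. That holds for 5 of the 14 probe sets, also for that of KIF18A, both of KIF22 and the brighter of KIF23. For the second KIF2C probe set an exact two-sided permutation test over the arrays gave p = 0.1, the smallest that 3 against 3 arrays allow.

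CENPE and KIF18A work where microtubules meet chromosomes. CENPE, a kinetochore motor that carries chromosomes to the spindle equator, had 223.4, 194.6 and 158.8 in NME2-depleted arrays and 240.1, 223.8 and 232.7 in control arrays. It was the only one of the 10 genes whose groups did not overlap, although NME2-depleted replicate 1 and control replicate 2 were almost level, and 10.1% of all tested genes were lower without overlap. Its difference of -0.29 was the most negative of the 10 (SE 0.18, limma adjusted p = 0.558), with an interval from -0.69 to 0.12. The control arrays lay close together (SD 0.05 on the log2 scale) and the NME2-depleted arrays did not (0.25). KIF18A, which damps the movements of aligned chromosomes, had 341.3, 281.2 and 329 in NME2-depleted arrays and 341.1, 305.2 and 251 in control arrays. The first replicates of both groups were level, and the difference was 0.09 (SE 0.16, adjusted p = 0.859). Without control replicate 3 it was -0.030.

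KIF4A and KIF22 ride on chromosome arms and bind DNA. KIF4A also limits microtubule growth at the midzone together with PRC1. Its signals were 617.3, 579.5 and 505.4 in NME2-depleted arrays and 684.2, 673.2 and 612.9 in control arrays. Only NME2-depleted replicate 1 passed the lowest control array, and by little, and the difference was -0.21 (SE 0.12, adjusted p = 0.47) with an interval from -0.47 to 0.04. KIF22 pushes chromosome arms away from the poles. It had 371.5, 448.7 and 344.9 in NME2-depleted arrays and 419.9, 451.2 and 369.7 in control arrays, a difference of -0.09 (SE 0.15, adjusted p = 0.832). Its second probe set gave 226, 183.7 and 184.6 in NME2-depleted arrays and 189.6, 200.1 and 194 in control arrays, a difference of 0.02 (SE 0.18), so the signs disagreed.

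KIF20A, KIF23 and KIF14 serve the midzone and cytokinesis. KIF20A brings the AURKB-containing passenger complex to the midzone. It had 345.6, 215.5 and 283.9 in NME2-depleted arrays and 431.7, 329.6 and 249.9 in control arrays. The first array of each group was its highest, the groups overlapped broadly, and the difference was -0.25 (SE 0.23, adjusted p = 0.696) with an interval from -0.75 to 0.25. KIF14, which binds citron kinase in cytokinesis, had 580.4, 540.5 and 577.3 in NME2-depleted arrays, all close together, and 667.5, 672 and 514.5 in control arrays. Its second probe set gave 381.1, 346 and 351.8 in NME2-depleted arrays and 443.1, 450.6 and 316.2 in control arrays. In both, control replicate 3 was the lowest of the 6. The 2 probe sets had differences of -0.12 (SE 0.13) and -0.15 (SE 0.16), with adjusted p-values of 0.753 and 0.746.

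KIF23 is the motor subunit of centralspindlin, the complex that marks the division plane. Its brighter probe set had 820.8, 664.3 and 657.4 in NME2-depleted arrays and 800.5, 753.9 and 628.7 in control arrays, so the groups were nearly level (-0.03, SE 0.13, adjusted p = 0.956). The other probe set gave 204.7, 161.8 and 186.3 in NME2-depleted arrays and 127.3, 178.3 and 109.2 in control arrays, with an overlap through control replicate 2 and a difference of 0.44 (SE 0.23, adjusted p = 0.455). This was the most positive value of the 14. The annotation names no accession for it, as for the second probe set of KIF22, and the 2 KIF23 probe sets were not tested against each other.

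**Figure D2:**
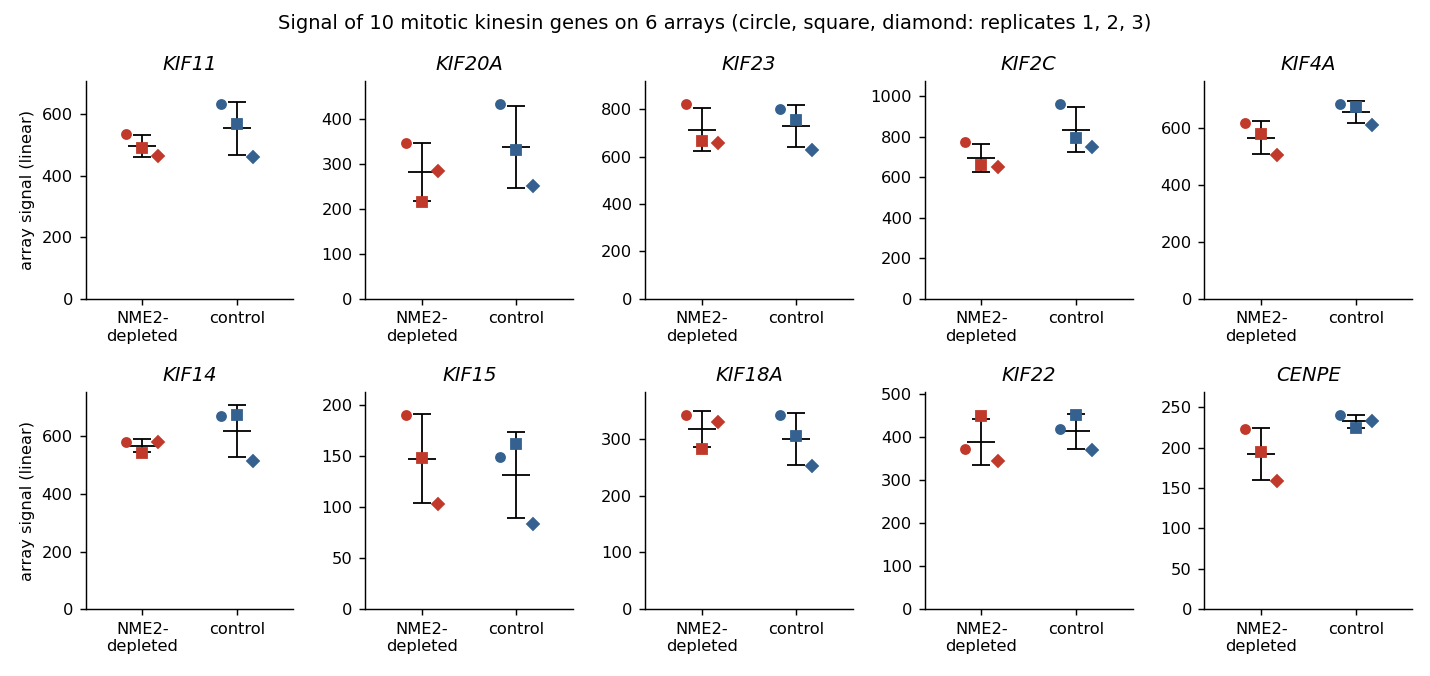
Array signal of the brightest probe set of each gene. The vertical axis is the signal on a linear scale that starts at 0, coloured points are the 3 arrays of each group (circle, square and diamond for replicates 1, 2 and 3), and bars give the mean and SD. The groups overlap in each gene except CENPE.

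**Figure D3:**
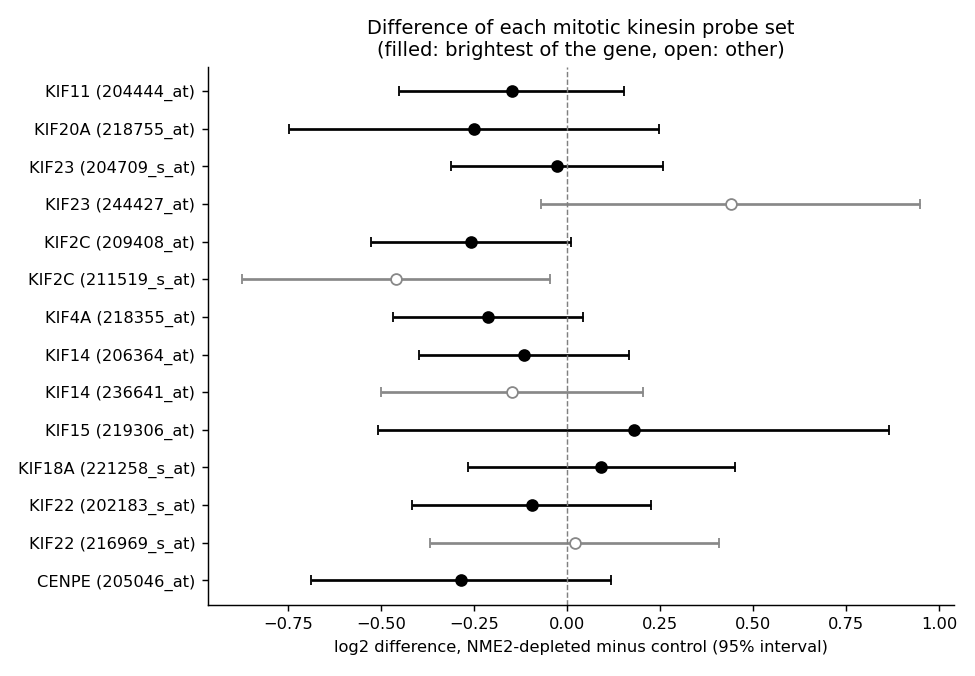
Difference of each of the 14 probe sets on the log2 scale (NME2-depleted minus control), with 95% intervals from limma. Filled points are the brightest probe set of a gene, open points the other, and the array identifier stands beside each symbol. The interval excludes 0 only for the second probe set of KIF2C, from -0.87 to -0.05.

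The intervals give the size of change that these arrays still allow. For the brightest probe sets all 10 intervals included 0. The widest on the lower side was that of KIF20A, which reached 1.68-fold lower, and the widest on the higher side that of KIF15, which reached 1.82-fold higher. The narrowest was that of KIF4A, from 1.38-fold lower to 1.03-fold higher. In 3 of 10 genes (KIF2C, KIF4A and CENPE) the difference exceeded the larger of the 2 within-group SDs. For how many of all tested genes this held was not counted. Among the second probe sets the limits were wider, reaching 1.83-fold lower for KIF2C and 1.93-fold higher for KIF23.

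The 10 genes tended to be high or low on the same arrays. The median log2 level over each gene's own mean was 0.06, -0.11 and -0.19 in the NME2-depleted arrays (replicates 1, 2 and 3), against 0.17, 0.13 and -0.18 in the control arrays. Control replicate 3 thus stood level with the lowest NME2-depleted array, and the groups overlapped. Control replicate 1 was the highest of the 6 arrays in 5 of 10 genes and NME2-depleted replicate 1 in 3, whereas these arrays were highest in 15.6% and 17.7% of all tested genes. Control replicate 3 was the lowest in 5 of 10 and NME2-depleted replicate 3 in 4, against 18.2% and 19.1% of all tested genes. Over all tested genes the array medians lay between -0.01 and 0.01. Some lists of related function had medians in a similar order, but not all. The spindle and midzone partners described further on had 0.06, -0.11 and -0.13 in NME2-depleted arrays and 0.20, 0.07 and -0.01 in control arrays. Regulators of G2/M transcription had 0.13, -0.05 and -0.12 in NME2-depleted arrays and 0.09, 0.06 and -0.08 in control arrays. Other kinesins of the spindle had 0.13, -0.08 and -0.03 in NME2-depleted arrays and 0.06, -0.03 and -0.15 in control arrays. Transport kinesins had -0.02, 0.03 and -0.02 in NME2-depleted arrays and -0.05, 0.02 and 0.01 in control arrays, with control replicate 1 the lowest. A list of 13 tested interferon-response genes had medians of -0.87, -0.42 and -0.77 in NME2-depleted arrays and 1.79, 0.03 and 0.45 in control arrays. Control replicate 1 stood highest there, but every control median lay above every NME2-depleted one. Differences were below 0 in 13 of 13, where 49.8% of all tested genes were lower. All 13 had an unadjusted p under 0.05 in limma, against 15%. IFITM2, MX1 and IRF9 passed the threshold as lower, where 0.395% of all tested genes did. For IFI44 each NME2-depleted signal (62.7, 31 and 36.3) lay under the filter value of 71.7. The part of the interferon-response genes in the kinesin values was not tested.

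**Figure D4:**
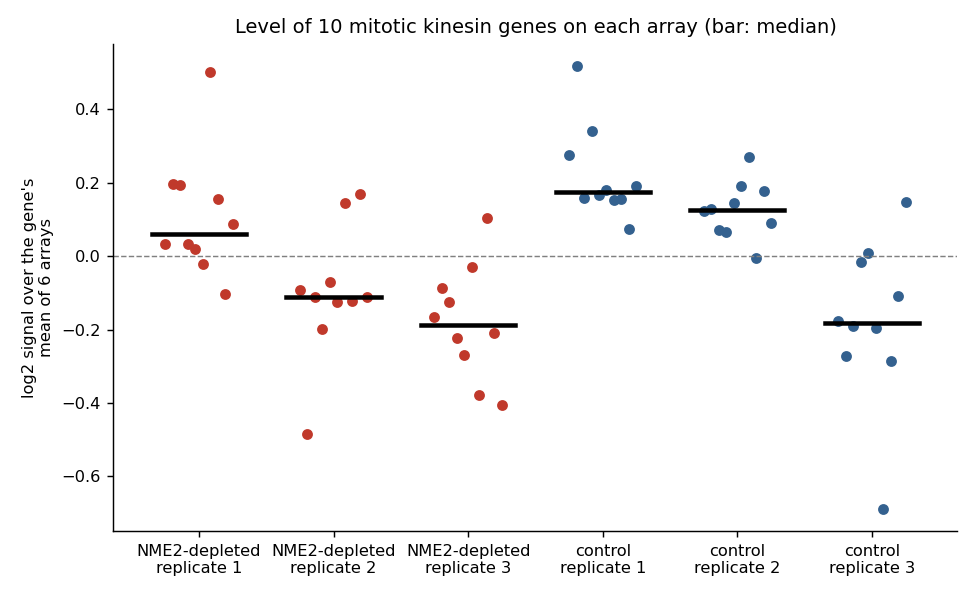
Levels of the 10 genes array by array. Plotted upward is the log2 signal over the gene's mean of 6 arrays, points are genes and the thick bar is their median. The medians of replicates 1, 2 and 3 lie at 0.06, -0.11 and -0.19 for NME2-depleted arrays, and at 0.17, 0.13 and -0.18 for control arrays.

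Other kinesins were compared by lists. Of 11 further kinesins with a reported role at spindles or cilia, 7 were tested, 0 passed in limma, 0 had an unadjusted p under 0.05, and the median was -0.01. KIF20B, the relative of KIF20A, had 395.3, 414.4 and 369.4 in NME2-depleted arrays and 334.1, 330.3 and 302.8 in control arrays. These groups did not overlap, with a higher mean in NME2-depleted cells (0.29, SE 0.13, adjusted p = 0.391). The share of all tested genes that were higher without overlap was not counted. KIF3B, KIF3A and KIF2A had differences of -0.10, 0.13 and -0.06. The groups of KIF3B and KIF2A did not overlap either, both lower, where 10.1% of all tested genes were lower without overlap. The sign of KIF2A turned to 0.22 when probe sets shared between transcripts were left out. A list named transport kinesins held 27 other kinesins, light chains and associated proteins, not all of them transport motors. Of these 20 were tested, 0 passed, 5 had an unadjusted p under 0.05 where 15% of all tested genes did, and the median was -0.05. KIF16B, a motor of early endosomes, had 1938, 1942 and 1679 in NME2-depleted arrays and 1542, 1434 and 1230 in control arrays (0.41, SE 0.10, adjusted p = 0.12). KIF3C, KIF1B and KIFC3 had -0.23, 0.33 and -0.50, with adjusted p-values of 0.219, 0.254 and 0.259. With a gene given by the mean of its probe sets, KIF16B had 0.13, KIF3C -0.11, KIF1B 0.21 and KIFC3 -0.15.

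Among proteins that work with these motors 1 passed the threshold as lower, where 0.395% of all tested genes did. Of 30 spindle and midzone partners 28 were tested, 24 had a lower mean where 49.8% of all tested genes did, 5 had an unadjusted p under 0.05 against 15%, and the median was -0.13. AURKB, the kinase of the passenger complex that KIF20A moves, had 250.1, 253.9 and 206.1 in NME2-depleted arrays and 634, 588.7 and 397 in control arrays. Its groups did not overlap, where 10.1% of all tested genes were lower without overlap. AURKB fell 2.25-fold (log2 difference -1.17, SE 0.19, limma adjusted p = 0.0312). This call was kept without control replicate 3 (adjusted p = 0.0368) and lost without each of the other 5 arrays (0.0694 to 0.113). PLK1, a mitotic kinase, had -0.37 (adjusted p = 0.138). PRC1, which bundles midzone microtubules and recruits KIF4A, had 2005, 1682 and 1454 in NME2-depleted arrays and 2712, 2259 and 2027 in control arrays (-0.45, SE 0.13, adjusted p = 0.174). NUSAP1, a microtubule-bundling protein, had -0.25 (adjusted p = 0.285). Whether AURKB differed from the kinesins in its change was not tested.

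Of 25 regulators of G2/M transcription 21 were tested, 0 passed in limma, 6 had an unadjusted p under 0.05 against 15% of all tested genes, and the median was -0.04, with 12 lower and 9 higher means. FOXM1, an activator of CHR-bearing genes, had 657.3, 683.3 and 612.8 in NME2-depleted arrays and 1007, 882.9 and 907.4 in control arrays. The groups did not overlap, where 10.1% of all tested genes were lower without overlap. The difference of -0.52 (SE 0.10) missed the threshold (adjusted p = 0.058), which it passed when only probe sets above the 75th percentile were tested (adjusted p = 0.0442). TFDP2, a partner of E2F factors, and the cyclin-dependent kinase inhibitor CDKN1A had -0.30 and -0.27 (adjusted p = 0.299 and 0.312). RBL2, the p130 pocket protein of the DREAM complex, had 0.24 (adjusted p = 0.33), and 0.14 with the mean of its probe sets.

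**Figure D5:**
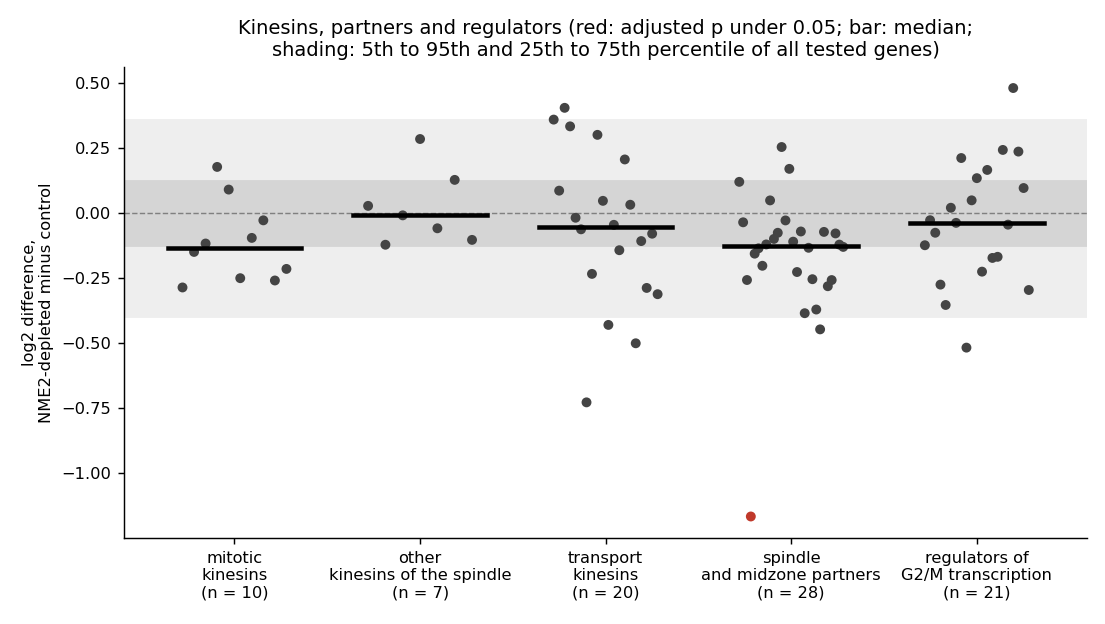
Differences on the log2 scale (NME2-depleted minus control) in the mitotic kinesins and 4 related lists. Points are genes, the black bar is the median of a list, red marks an adjusted p under 0.05, and shading spans the 5th to 95th (light) and 25th to 75th (dark) percentiles of all 12406 tested genes. The 10 kinesins lie between -0.29 and 0.18, and AURKB, at -1.17, is the only red point.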

How the data were processed

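Sample titles gave the groups and replicate numbers. The authors deposited linear intensity signals, 1 per probe set, made with GCOS 1.1.1 per the labels and already scaled, since the mean after trimming 2% at each end was 500.1 on each of the 6 arrays. Scaling hides a shift shared by all transcripts. Detection calls were not used, and dim signals are not called absent. Arrays have no read depth, and their number, 3 per group, limits the precision.

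After 62 control probe sets were left out, values below 1 (0.327% of all) were raised to 1 before log2. Probe sets whose mean log2 signal reached the median (a signal of 71.7) were tested. Differences are NME2-depleted minus control from limma 3.58.1 in R 4.3.3 (lmFit, eBayes with an intensity trend), with two-sided p-values adjusted by Benjamini-Hochberg over all 27307 probe sets at a threshold of 0.05. A gene is given by its brightest tested probe set. The procedure was tested on simulated data. None of 15 array pairs was a duplicate. Symbols came from the 2016 platform annotation, and 0 changed when looked up by gene identifier. Promoter sequences are from RefSeq. Signals of different probe sets are not compared as levels.

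The members and lists were chosen with earlier results of these data known. Named genes are the 10 members, NME2, and from each of 4 lists the genes past the threshold, filled up to 4 by lowest p. The alternatives comprised 3 array scalings, an offset, 2 filters, shared probe sets left out, 2 variance models, the replicate block, the methods' t-test, averaging the probe sets of a gene and each array left out in turn. The change test of GCOS was not rerun.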

Additional observations from a re-analysis of the deposited data

How the results depend on the processing

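In 18 alternatives 0 of the 10 mitotic kinesin genes passed, with adjusted p-values from 0.21 upward. Leaving out shared probe sets left 8 of the 10, without KIF18A and KIF22. FOXM1, PRC1, CDKN1A and KIF20B also had no value there. Of 173 single differences of the kinesins 164 kept their sign, and 9 turned. The filters, the variance models, the replicate block and the methods' t-test cannot change a difference, so its sign could not turn there. Nor could it turn where leaving out or averaging probe sets left a gene's probe set unchanged. KIF23 became 0.44 without shared probe sets, 0.21 with the mean of its probe sets, and 0.021, 0.029, 0.045 and 0.0019 without NME2-depleted replicates 2 and 3 and control replicates 1 and 2 (range with an array left out -0.13 to 0.045). KIF15 turned to -0.028 and -0.12 without NME2-depleted replicate 1 and control replicate 3 (range -0.12 to 0.41), and KIF18A to -0.030 without control replicate 3 (range -0.030 to 0.19). KIF2A turned to 0.22 without shared probe sets and 0.079 with the mean of its probe sets, and KIF3C to 0.020 without shared ones. The median over the kinesins stayed below 0, from -0.18 with median centring or without shared probe sets to -0.12 with an offset, and from -0.25 to -0.05 with an array left out. A filter at the 75th percentile left 5 kinesins, all 5 lower, where 50% of all genes tested under that filter were lower. KIF23, at -0.03, was among the 5. Median centring moved the share of all tested genes with a lower mean to 60.6% and their median to -0.05.

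Over the whole array 108 probe sets and 67 genes passed. Without a filter it was 30 and 21, with the stricter filter 192 and 110, and 62 probe sets without shared ones. With no intensity trend and with the methods' t-test, 0 passed, and NME2, still at -2.78, had adjusted p-values of 0.228 and 0.204. The mean of probe sets gave 28 genes. With an array left out, 8 to 63 probe sets and 5 to 39 genes passed (13, 36 and 9 probe sets without NME2-depleted replicates 1 to 3, and 63, 28 and 8 without control replicates 1 to 3), members called remained 0, 7 to 10 kinesins had a lower mean, and NME2 ranged from -2.96 to -2.50.

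The replicate numbers are not shown to pair the arrays. Deviations from the group means correlated at 0.11, 0.08 and 0.07 for numbers 1 to 3, and each array correlated best with its own number, a hint from the data. With the replicate block 464 probe sets and 284 genes passed, and 0 of the 10 mitotic kinesins, among which KIF2C had the lowest adjusted p, 0.21. Of the other genes named, FOXM1, PRC1, CDKN1A and KIF16B passed under the block (adjusted p = 0.0409, 0.0194, 0.0303 and 0.035), and AURKB remained past the threshold (0.0092). AURKB also missed the threshold without a filter (adjusted p = 0.0642), without the trend (0.249) and with the t-test (0.283).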
